A study of Oryza sativa with 4 samples.

Results

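The difference between the nitrate response of etiolated rice leaves and that of light-grown leaves was described across all probes of a rice array. For each probe it is the mean log2(nitrate/water) of the 2 dark arrays minus that of the 2 light arrays, so that a positive value means a higher ratio in dark and a negative value a higher ratio in light. All 4 of the 4 arrays of the series entered it. Seedlings of the indica rice cultivar Panvel were grown without nutrients on distilled water for 8 to 10 days at 25 °C, either with a 12 h photoperiod (light) or in total darkness (dark, etiolated), and both groups then received 120 mM nitrate for 2 h or water in their own light regime. The study's methods describe this treatment as floating excised leaves on potassium nitrate solution or water, for another time and at another growth temperature than the labels, so that the exact exposure is not settled. Each array carried nitrate-treated RNA in one dye and water-treated RNA in the other, and the 2 arrays of a condition came from separate biological replicates with the dyes exchanged.

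The labels do not say which channel held the nitrate-treated RNA. Channel 2 was read as nitrate, which gives the ratios the sign of the study's published values, so that the direction is likely but not independent of the study. If the channels were the other way round on every array, each sign would turn, while the sizes, the genes called and the split between same and opposite responses would stay. The growth regime and the light regime during treatment went together, so the effect of light at the time of treatment and the effect of etiolated tissue cannot be told apart. The study's methods give potassium nitrate against water alone. Effects of nitrate, potassium and salt load therefore cannot be told apart either. Whole leaves were extracted, and a lower ratio from fewer cells of a type and one from less RNA per cell cannot be told apart.

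Leaves take up nitrate and reduce it in successive steps: nitrate reductase turns it into nitrite in the cytosol with a molybdenum cofactor, and nitrite reductase turns nitrite into ammonium in the plastid with siroheme and electrons from reduced ferredoxin. In green leaves photosystem I reduces ferredoxin, whereas in non-green plastids ferredoxin-NADP reductase passes electrons to a root-type ferredoxin from NADPH, which the oxidative pentose phosphate pathway supplies. In plants the genes of these steps are known to respond to nitrate within hours, and in leaves light and sugars are known to raise their transcript levels further.

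Between 75.5% and 79.0% of spots per array were well above background in the nitrate channel. Across probes, the ratios correlated at 0.45 between the light arrays and at 0.46 between the dark arrays, and at -0.01 to 0.32 between arrays of different conditions. The highest of these last values joined the arrays of replicate 2 and the lowest those of replicate 1, although each of these pairs shares a dye orientation. All 4 arrays lay on 1 slide. In the water channel, 34 of 39 probes for chlorophyll a/b-binding proteins, photosystem subunits and the small subunit of Rubisco were well above background on both arrays in light and 30 in dark, with a median signal of 26100 in light and 3860 in dark against 635 and 393 over all probes. Of 11 seed storage protein probes, 5 in light and 3 in dark were well above background.

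By limma, 1400 of 21495 probes (6.51%) differed between dark and light by at least 1 on the log2 scale, or 2-fold, at an unadjusted p of at most 0.05. These are called below. The ratio was higher in dark for 640 of them (2.98%) and higher in light for 760 (3.54%). None passed a Benjamini-Hochberg adjusted p of 0.05, the smallest adjusted p being 0.0602, while 3377 probes (15.7%) had an unadjusted p of at most 0.05 whatever the size. Over all probes the median difference was -0.01, the median absolute difference 0.31 and the median standard error (SE) of a difference 0.25. A difference of at least 2 was found for 84 called probes in the direction of dark and 81 in that of light. The dark arrays lay above both light arrays for 22.4% of all probes and below both for 24.0%, and the arrays of the 2 conditions did not overlap for any of the 1400 called.

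The called set depended on single arrays and on the processing. With the normexp background correction, which models the background from the raw spot signals, 501 probes were called, and 693 when limma's moderation of the variance was left out. Without dark replicate 2 the count was 2286, and 598 of the 1400 probes (42.7%) were called in each of the 4 fits that left out 1 array, 298 with the higher ratio in dark and 300 in light. Every called gene named below is among the 598 unless the text says that it lost the call in one of these fits. Both channels were well above background on all 4 arrays for 14731 probes (68.5%). These are termed bright, and 825 of them (5.6%) were called, 316 in the direction of dark (2.15%) and 509 in that of light (3.46%). Genes are named by the description the array gives them, which is the most similar sequence found, often from another plant, together with the rice cDNA accession. Probes with the same description can stand for the same gene or for close copies.

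The mean ratios in light and dark had opposite signs for 1110 of the 1400 called probes (79.3%) and the same sign for 290, against opposite signs for 48.7% of all probes. A large difference is itself more often met with opposite signs, so the call fixes part of this share. For most of the 1110 one of the responses was small. When a mean ratio of at least 0.5 in size on the log2 scale was required in both conditions, 360 called probes (25.7%) had opposite signs, 180 positive in dark and 180 positive in light, and 209 of the 360 were bright. In 347 of the 360 both arrays of each condition had the same sign, and in 219 the ratio of each condition also passed 0.05 by limma without adjustment. Both means reached 1 in size for 37 probes, of which 12 were bright.

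Among the 640 probes with the higher ratio in dark, 237 (37.0%) had a negative ratio in light and a ratio under 0.5 in size in dark, 199 (31.1%) a positive ratio in dark and a small one in light, and 180 (28.1%) the opposite signs just given. In few were both means at least 0.5 in size and of the same sign. They were positive and larger in dark in 15, and negative and lower in light in 9. Among the 760 with the higher ratio in light, 284 (37.4%) had a negative ratio in dark and a small one in light, 255 (33.6%) a positive ratio in light and a small one in dark, and 180 (23.7%) opposite signs. With both means at least 0.5 in size, 25 had positive ratios, larger in light, and 16 negative ratios, lower in dark. These 25 probes included the bright nitrate reductase, uroporphyrinogen III methyltransferase, root-type ferredoxin and ferredoxin-NADP reductase probes described next.

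**Figure D1:**
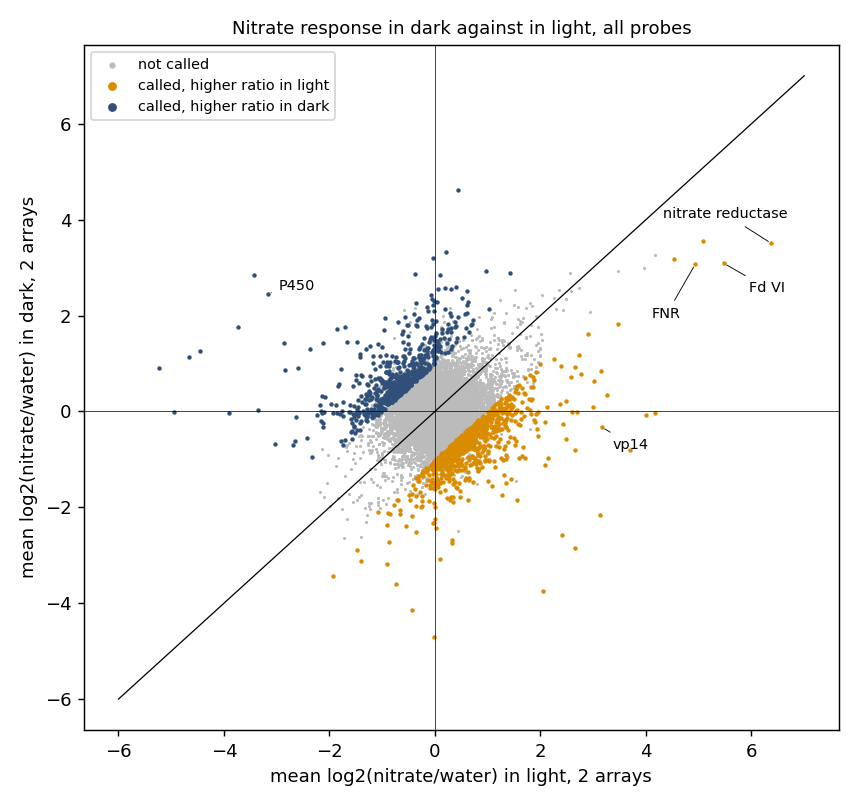
Mean log2(nitrate/water) of each of the 21495 probes in dark (vertical axis, 2 arrays) against light (horizontal axis, 2 arrays); grey points were not called, orange points had the higher ratio in light (760) and blue points in dark (640), and the diagonal marks equal responses. Called points fill mainly the quadrants of opposite sign and the bands along the axes, while nitrate reductase, the ferredoxin Fd VI and ferredoxin-NADP reductase (FNR) lie far to the right, positive in both conditions and below the diagonal.

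Both nitrate reductase probes that could be measured had positive ratios in both conditions and larger ones in light. The nitrate reductase probe AK102178 had log2 ratios of 6.44 and 6.32 in light and 3.29 and 3.72 in dark, which is 83.2-fold in light and 11.3-fold in dark. The dark arrays lay far below the light arrays, and the difference was -2.88 with an SE of 0.23 (limma, adjusted p = 0.0992). A second nitrate reductase probe, AK102363, had 3.12 and 3.17 in light and 0.88 and 0.80 in dark, or 8.84-fold and 1.79-fold, with a difference of -2.31 ± 0.18 (SE). Both pairs of replicates agreed closely here. The other members could not be ordered. For AK107363 the water channel was not well above background, so that only bounds can be given, at least 2.27-fold for light and at least 1.67-fold for dark. Both channels of AK110249 were dim in both conditions. A bound divides the mean of the brighter channel by the lowest signal that still counted as detected on that array, or by the signal of the dim probe itself where this was the larger.

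Of the nitrite reductase probes, AK061893 rested on bounds. Its log2 ratios were 5.07 and 5.08 in light and 4.05 and 3.05 in dark, with a fitted difference of -1.53 ± 0.39 (limma, adjusted p = 0.239). Its water channel was not well above background in either condition, which leaves bounds of at least 15.1-fold for light and at least 5.75-fold for dark and no order between the conditions, and the call was lost without light replicate 1 and without light replicate 2. The other probe, AK064778, had ratios of -0.36 and -0.08 in light and 0.00 and 0.27 in dark and was not called.

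Genes for the cofactors of both enzymes were called in the same direction. Uroporphyrinogen III methyltransferase (AK072497), which makes the precursor of siroheme, had ratios of 4.77 and 4.28 in light and 3.4 and 2.96 in dark, a difference of -1.34 ± 0.28. All 4 ratios were strongly positive, but the difference was not called without moderation of the variance. CNX2 (AK065402), of molybdenum cofactor synthesis in Arabidopsis, had 1.76 and 1.49 in light and -0.53 and 0.52 in dark, so that the dark arrays lay on both sides of 0. Its difference of -1.63 ± 0.41 lost the call without light replicate 1, at -1.49. The other 3 probes for molybdenum cofactor synthesis were not called, and 2 of them, for Cnx1 (AK070456, 0.35) and cnx5 (AK065368, 1.06), had differences in the direction of dark.

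The ferredoxins that carry electrons to nitrite reductase in non-green plastids separated from the others of the class. Fd VI (AK069860), named after a maize ferredoxin, had ratios of 5.43 and 5.51 in light and 3.05 and 3.13 in dark, or 44.4-fold and 8.53-fold, with a difference of -2.38 ± 0.18. The root ferredoxin (AK103416) had 3.74 and 3.21 in light and 1.59 and 2.07 in dark, or 11.1-fold and 3.56-fold, with a difference of -1.64 ± 0.30. Both were bright on all arrays and high in both conditions. The remaining 3 ferredoxin probes were not called, with differences of -0.65 (AK061654), -0.34 (AK062016) and 0.08 (AK059896).

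The same held among the ferredoxin-NADP reductases, where 1 of 4 probes was called. AK070598 had ratios of 5.19 and 4.69 in light and 3.16 and 3.0 in dark, or 30.6-fold and 8.43-fold, and the fitted difference was -1.86 ± 0.25. Its nitrate channel was saturated on light replicate 1, so that the ratio there, the fold in light and the size of the difference are lower limits. Probes AK065063 and AK065309 (the leaf enzyme L-FNRII) had differences of 0.05 and -0.23 and were not called. Both channels of AK072768 were dim. Over the nitrate reductase, nitrite reductase, cofactor, ferredoxin and ferredoxin-NADP reductase probes, no member was called with the higher ratio in dark. With 2.98% of all probes called in that direction, few or none would be met among so few probes.

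**Figure D2:**
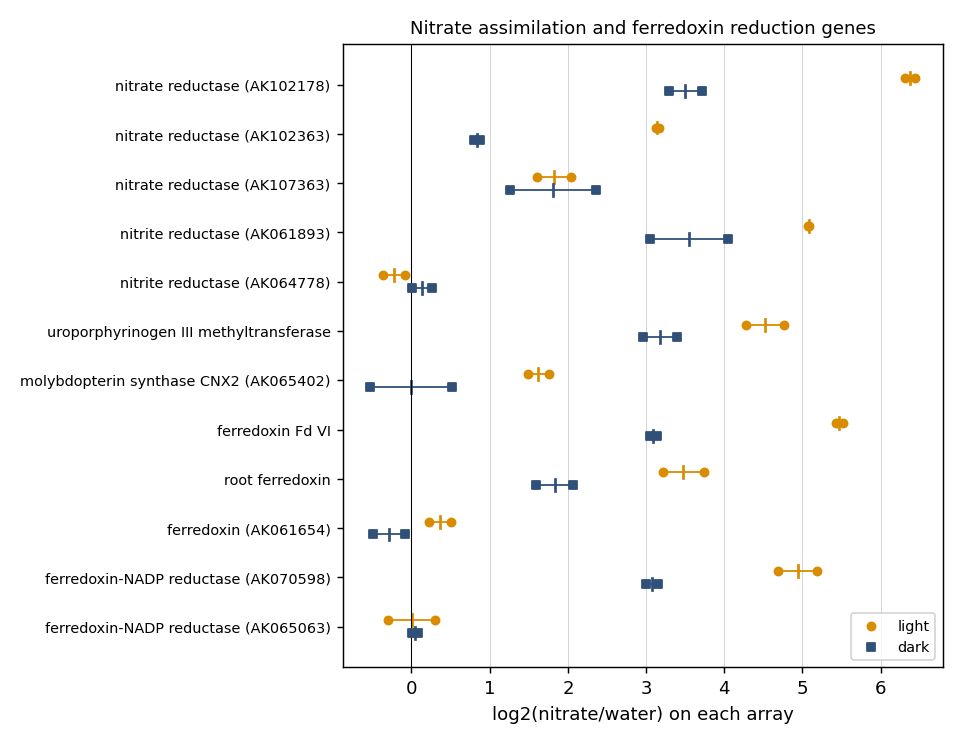
log2(nitrate/water) on each array for 12 probes of nitrate reduction and ferredoxin reduction (orange circles, 2 light arrays; blue squares, 2 dark arrays; bars mark the mean and lines join the 2 arrays). The light arrays lie to the right of the dark arrays for both bright nitrate reductase probes, uroporphyrinogen III methyltransferase, Fd VI, root ferredoxin and ferredoxin-NADP reductase AK070598, while nitrite reductase AK064778 and ferredoxin-NADP reductase AK065063 stay near 0. AK107363 and AK061893 rest on a water channel near background.

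A ratio can differ through either channel, so the channel levels of these genes were compared after normalisation between arrays. The water level of AK102178 was 6.96 and 7.10 on the log2 intensity scale in light and 8.81 and 8.94 in dark, and its nitrate level 13.40 and 13.42 in light and 12.10 and 12.66 in dark. Water-treated etiolated leaves thus had the higher level and nitrate-treated ones the lower. The 2 channels showed the same arrangement for AK102363, Fd VI and ferredoxin-NADP reductase AK070598: the nitrate level of Fd VI was 16.13 and 16.78 in light and 15.09 and 15.18 in dark, and its water level 10.71 and 11.27 in light and 12.04 and 12.05 in dark.

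For the other 2 genes the larger ratio in light came from the water channel alone. The nitrate level of uroporphyrinogen III methyltransferase was higher in dark, with 15.74 and 15.62 against 14.68 and 14.73 in light, and its water level was higher still, with 12.34 and 12.66 against 9.91 and 10.44. The nitrate level of the root ferredoxin was 14.33 and 14.85 in dark and 14.30 and 14.35 in light, which overlap, while its water level was 12.74 and 12.78 in dark and 10.56 and 11.14 in light. In all 6 of these genes both dark arrays exceeded both light arrays in the water channel. A higher ratio in light, which all 6 had, itself favours this arrangement, and it was not counted over all probes. The levels are set across arrays by quantile normalisation, were not tested, and were taken from arrays that differ in overall brightness.

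**Figure D3:**
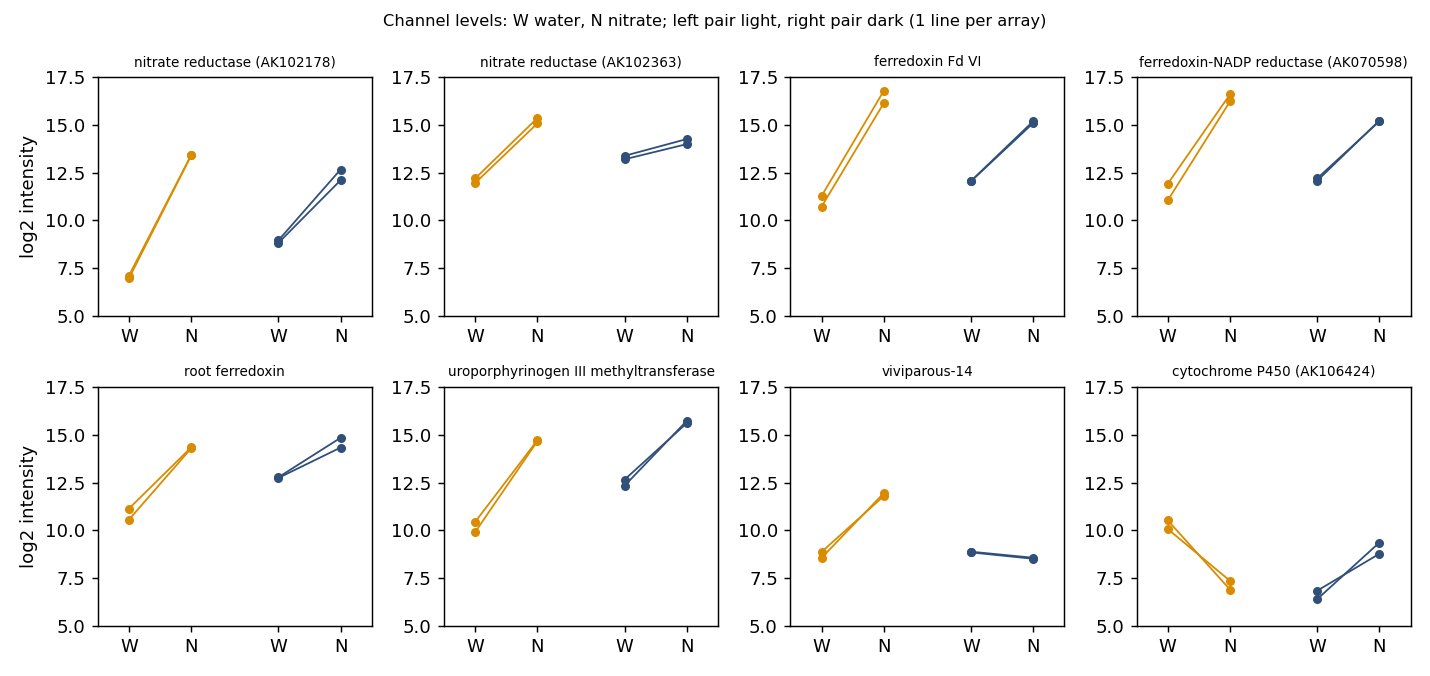
log2 intensity of the water (W) and nitrate (N) channel on each array for 8 genes (orange, light; blue, dark; 1 line per array). The water level of the first 6 genes starts higher in dark, viviparous-14 rises from water to nitrate only on the light arrays, and cytochrome P450 AK106424 runs in opposite directions in the 2 conditions.

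Over the bright called probes the water channel differed less between dark and light, by its median, than the nitrate channel. For the 316 with the higher ratio in dark, the median level was higher in dark by 1.13 in the nitrate channel, and the median of the water channel was -0.19. For the 509 with the higher ratio in light these medians were -0.88 in the nitrate channel and 0.45 in the water channel, and 346 of them (68.0%) had the higher water level in dark, against 52.0% of all bright probes. The water channel differed by more than the nitrate channel for 37.0% of the former and 40.5% of the latter. Part of these values follows from the way the probes were called, since the difference of the ratios is the difference of these channel differences.

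Upstream of nitrate reduction, 3 of 15 nitrate transporter probes were called, all with the higher ratio in light, and the class median was -0.17. The share called lay above the 3.54% of all probes called in that direction, but each of the 3 lost the call in some fits without 1 array. NRT1.1-t (AK070077), of the NRT1 family of mostly low-affinity transporters, had 0.77 and -0.30 in light and -1.39 and -1.27 in dark, a difference of -1.57 ± 0.41. Its negative ratio in dark carried the difference, and the call was lost without dark replicate 1 (-1.51) and without dark replicate 2 (-1.63). A putative nitrate transporter (AK071803) had 0.39 and 0.28 in light and -0.65 and -0.95 in dark, and its difference of -1.13 ± 0.21 fell short of the threshold without dark replicate 2 (-0.98). The remaining called probe, described as NRT1-5 (AK111434), was not bright. Its difference of -1.06 fell short of the threshold without dark replicate 1 (-0.98) and without light replicate 2 (-0.86). Under the normexp correction it was -0.46. The Nrt2 probe AK072215 had a difference of 0.29 and was not called. The OsCLC-1 probe (AK066375), of a family of anion channels and exchangers, of which an Arabidopsis member loads nitrate into the vacuole, had 2.79 and 2.75 in light and 0.68 and 0.89 in dark, a difference of -1.99 ± 0.19.

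Downstream of nitrate reduction, in ammonium assimilation and amino acid metabolism, the share called was below the 6.51% of all probes. Of 30 probes for ammonium assimilation (glutamine synthetase, glutamate synthase and ammonium transporters among them) 1 (3.33%) was called, the ammonium transporter AMT2 (AK100411), with 1.10 in the direction of dark. It lost the call without light replicate 1 and without dark replicate 1. Of 75 probes for amino acid metabolism 1 (1.33%) was called, in the direction of light. The pentose phosphate pathway, which supplies NADPH, had 2 of 24 probes called (8.33%, above that of all probes), 1 each way (4.17%). By limma, 7 of the 24 had an unadjusted p of at most 0.05 whatever the size, a larger share than the 15.7% of all probes. Glucose-6-phosphate dehydrogenase (AK073697) had -0.41 and 0.27 in light and -1.17 and -1.21 in dark, a difference of -1.12 ± 0.29. This difference kept the call in 1 of the 4 fits without 1 array and was -0.63 under the normexp correction. The probe called in the direction of dark (AK101430, 1.32) kept the call in all 4 of these fits. It was not bright, and its difference was 0.0028 under the normexp correction. The medians of these 3 classes lay between -0.04 and 0.08.

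Few other genes shared the pattern of a mean ratio of at least 0.5 in both conditions, larger in light. Of the 17 bright ones, 7 are described above and 5 have no description of a protein. LHY (AK111726), a MYB-type factor of the circadian clock, had 2.45 and 2.34 in light and 1.15 and 0.73 in dark, a difference of -1.46 ± 0.23. The dark ratios of LHY were positive on both arrays, and its difference was -0.93 under the normexp background correction. A salicylic acid glucosyltransferase (AK110892) had means of 1.81 and 0.77, a barley-type ABA-responsive protein (AK063578) 1.86 and 0.72, a monodehydroascorbate reductase (AK099848) 2.26 and 1.09, and the vacuolar Na+/H+ antiporter OsNHX1 (AK064004) 1.72 and 0.70 in light and dark. Each of these 4 lost the call in at least 2 of the fits without 1 array.

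The reverse pattern, a mean ratio of at least 0.5 in both and larger in dark, held 7 bright genes. The Em protein (AK063677), a wheat late embryogenesis abundant protein, had 0.97 and 0.95 in light and 3.27 and 2.58 in dark, a difference of 1.97 ± 0.30. A putative sugar transporter (AK073216) had 1.5 and 1.34 in light and 2.87 and 2.91 in dark, a difference of 1.47 ± 0.19. The differences of both genes were 0.42 and 0.49 under the normexp background correction and no longer called. Cytochrome P450 CP7 (AK068907) had 0.61 and 0.53 in light and 2.01 and 2.07 in dark, with a difference of 0.46 under that correction, and the glutathione S-transferase OsGSTU15 (AK063104) 0.43 and 0.75 in light and 1.93 and 1.56 in dark. The last lost the call in 2 of the 4 fits without 1 array.

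By description, 8546 probes named a protein, of which 651 were called, and 3966 probes fell in at least 1 of 69 gene classes, with 355 called. The classes are described by the share of their members called in each direction beside the 2.98% and 3.54% of all probes. They were not tested as sets.

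Of the classes with at least 15 members, gibberellin metabolism had the highest share in a single direction: 5 of 16 probes (31.2%) had the higher ratio in light, none in dark, and the class median was -0.43. All 5 were bright, and they held genes of both making and inactivating gibberellins. For OsGA2ox3 (AK101713), a gibberellin 2-oxidase, which inactivates the hormone, the ratios were 1.64 and 1.14 in light and -0.47 and -0.79 in dark, a difference of -2.02 ± 0.27. A second OsGA2ox3 probe (AK107211) had 0.55 and 0.12 in light and -0.71 and -1.13 in dark, a difference of -1.26 that was not called without moderation. The gibberellin C-20 oxidase (AK107142) and 20-oxidase (AK070306) probes, for the enzymes that make active precursors, had differences of -1.53 and -1.21, which under the normexp correction were -0.66 and -0.71 and not called. Another 20-oxidase probe (AK105597), with a difference of -1.19, lost the call in 2 of the fits without 1 array and was -0.77 under the normexp correction. All 5 had positive ratios on both light arrays and negative ratios on both dark arrays.

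Transporters of sugars, peptides and amino acids were also called mostly in the direction of light, 15 of 96 (15.6%) against 3 (3.12%), with a median of -0.15. An amino acid carrier (AK060685) had 0.51 and 0.43 in light and -1.78 and -1.53 in dark, a difference of -2.13 ± 0.20, or -1.22 under the normexp correction. A glucose transporter described from sugarcane (AK065807) had 0.54 and 0.54 in light and -0.93 and -0.77 in dark, and the peptide transporter ptr1 (AK070036) 0.97 and 0.81 in light and -0.40 and -0.20 in dark. The ratio in dark was below 0 on both arrays in each of these. Of the 15, 5 had opposite signs with both means at least 0.5 in size. The 3 exceptions were the sugar transporter AK073216 given above, a hexose transporter (AK099716, 1.05), which lost the call in 2 of the fits without 1 array, and an amino acid carrier (AK070030, 1.20), which was not bright. Under the normexp correction none of the 3 was called.

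Among regulators, homeobox factors (7 of 43 in the direction of light, 16.3%, and 1 in that of dark) and AP2/ERF factors (5 of 28, 17.9%, and 0) had shares above that of all probes, with medians of -0.18 and -0.17. The AP2 factor BABY BOOM2 (AK109839), which promotes embryo formation in Brassica, had 2.07 and 1.81 in light and -0.63 and -0.09 in dark, a difference of -2.30 ± 0.27, or -1.14 under the normexp correction. It was the only AP2/ERF member that kept its call in all 4 fits without 1 array. Homeodomain protein HB2 probes AK068585 and AK102788 had differences of -1.40 and -1.29, with all light arrays positive and all dark arrays negative. A bHLH factor (AK059041) had 1.12 and 0.92 in light and -1.11 and -0.98 in dark, although only 1 of 23 bHLH probes was called each way. WRKY71 (AK108745), from a family of stress and defence regulators, had 0.56 and 0.46 in light and -1.30 and -1.13 in dark.

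Receptor-like kinases, which sit in the plasma membrane and relay signals into the cell, had 28 of 296 probes (9.46%) in the direction of light and 10 (3.38%) in that of dark, the latter close to the share of all probes, with a median of -0.07. A wall-associated kinase (AK100387) had -0.08 and 0.06 in light and -2.19 and -1.64 in dark, with a difference that the normexp correction reduced to -0.76. A kinase described from Arabidopsis (AK101714) had 0.98 and 0.87 in light and -0.76 and -0.76 in dark, a difference of -1.69 ± 0.18. The first therefore differed through the ratio in dark alone and the second through opposite ratios, as did 8 of the 28. Among glycosyltransferases, which attach sugars to hormones and other small molecules, 8 of 80 (10.0%) were called in the direction of light and 1 (1.25%) in that of dark, with a median of -0.25. A second salicylic acid glucosyltransferase probe (AK064395) had 1.27 and 1.47 in light and -0.21 and -0.06 in dark.

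Genes of cell walls and growth followed the same direction in part. Cell wall enzymes had 11 of 160 probes (6.88%) in the direction of light and 3 in that of dark. Expansins, which loosen the wall during growth, had 4 of 34 and 3, but only the 4 were bright. An alpha-expansin (AK070133) had 0.77 and 0.69 in light and -1.44 and -1.49 in dark, a difference of -2.19 ± 0.18, or -1.11 under the normexp correction. The aquaporin ZmPIP2-6 (AK072632), a water channel of the plasma membrane, had 1.36 and 1.33 in light and -1.11 and -0.69 in dark, whereas the 3 aquaporin probes called in the direction of dark were not bright.

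Of 50 probes for light harvesting and photosystems, 4 (8.0%) were called in the direction of light, above the 3.54% of all probes, and none in that of dark, with a median of -0.01. The largest difference, for a light-harvesting protein (AK060851), was -2.03 ± 0.49, from -0.26 and 0.71 in light and -2.28 and -1.34 in dark. The nitrate channel was saturated on light replicate 1 and the water channel on light replicate 2, so that the ratio in light is not bounded in one direction, and the call was lost in 2 of the fits without 1 array. Of the 4, only a Cab2 probe (AK060800, -1.17) kept its call in all of these fits, and it was not bright and had a difference of -0.09 under the normexp correction. Among 20 Rubisco and Calvin cycle probes 1 was called, in the direction of dark. For chlorophyll, heme and carotenoid synthesis 2 of 29 (6.90%) were called in the direction of dark and 1 (3.45%) in that of light, with a median of 0.08, and all 3 had opposite signs with both means at least 0.5 in size.

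Glutathione S-transferases, which conjugate glutathione to reactive and foreign compounds, were called more in the direction of dark: 7 of 54 (13%) against 3 (5.56%), with a median of 0.09. Only 4 of the 7 were bright, against all 3 in the direction of light. The wheat-type gstu3 probe (AK109314) had 0.04 and -0.08 in light and 1.65 and 1.12 in dark, a difference of 1.4 ± 0.26. Probe AK059760 had -0.12 and 0.31 in light and 1.44 and 1.29 in dark. In both the ratio was near 0 in light and positive in dark. The 3 members in the direction of light, AK064650, AK068654 and AK111021, ran the other way, with differences of -1.38 to -1.31 (-0.93 for AK068654 under the normexp correction), so that the class was not of 1 direction.

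Phenylpropanoid and flavonoid genes, of lignin and pigment synthesis, had 10 of 118 (8.47%) in the direction of dark and 5 (4.24%) in that of light, with a median of 0.12. Bright were 5 of the 10 and 3 of the 5. Caffeic acid O-methyltransferase (AK069960), of lignin synthesis, had -0.96 and -1.46 in light and 0.73 and 0.56 in dark, a difference of 1.85 ± 0.25. A hydroxycinnamoyl/benzoyltransferase (AK061327) had -0.27 and -0.52 in light and 1.13 and 0.84 in dark, and was not called under the normexp correction, at 0.90. Opposite signs with both means at least 0.5 in size were found for 5 of the 10. In the direction of light stood a putative anthocyanidin synthase (AK064211), with 0.60 and -0.70 in light and -2.37 and -2.28 in dark, which was not called without moderation, and a cinnamyl alcohol dehydrogenase (AK069040, -1.18).

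Many of the remaining classes with several calls were divided, but not all. Of 90 glycolysis, TCA cycle and organic acid probes, 5 (5.56%) were called in the direction of light and 0 in that of dark. Only 2 of the 5 were bright. Cytochrome P450 enzymes had 9 of 125 (7.20%) each way, class III peroxidases 9 (8.65%) and 10 (9.62%) of 104 in dark and light, and chitinases, glucanases and pathogenesis-related proteins 7 (4.86%) and 5 (3.47%) of 144. In the last class 5 of the 7 and 4 of the 5 had opposite signs. Its germin-like members were themselves split: RGLP1 (AK058764) had -0.45 and 0.47 in light and -3.02 and -1.84 in dark, while GER2 (AK059812) had -0.81 and -1.0 in light and 0.80 and 1.14 in dark. The first was not called without moderation (and had a difference of -1.56 under the normexp correction) and the second not under the normexp correction, at 0.85. In the jasmonate and lipoxygenase class 4 of 31 were called each way. Its 12-oxophytodienoic acid reductase RRJ4 (AK061212), of jasmonate synthesis, had -2.01 and -2.30 in light and -0.13 and -0.28 in dark, a difference of 1.96 ± 0.21.

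For terpenoid synthesis 4 of 18 (22.2%) were called in the direction of dark, and none of the 4 was bright. Proteases had 9 of 182 (4.95%) in dark and 5 in light. Heat shock proteins and chaperones had 4 of 94 (4.26%) and 1, with a class median of 0.20, and cell cycle and DNA replication genes had a median of 0.21 with 1 of 89 called. By limma, no probe was called among 26 for thioredoxins and glutaredoxins, 14 for F-box proteins and 36 for mitochondrial respiration, and 1, 0 and 2 of them had an unadjusted p of at most 0.05 whatever the size. Ribosomal proteins had 2 of 169 (1.18%) in dark and 4 (2.37%) in light.

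**Figure D4:**
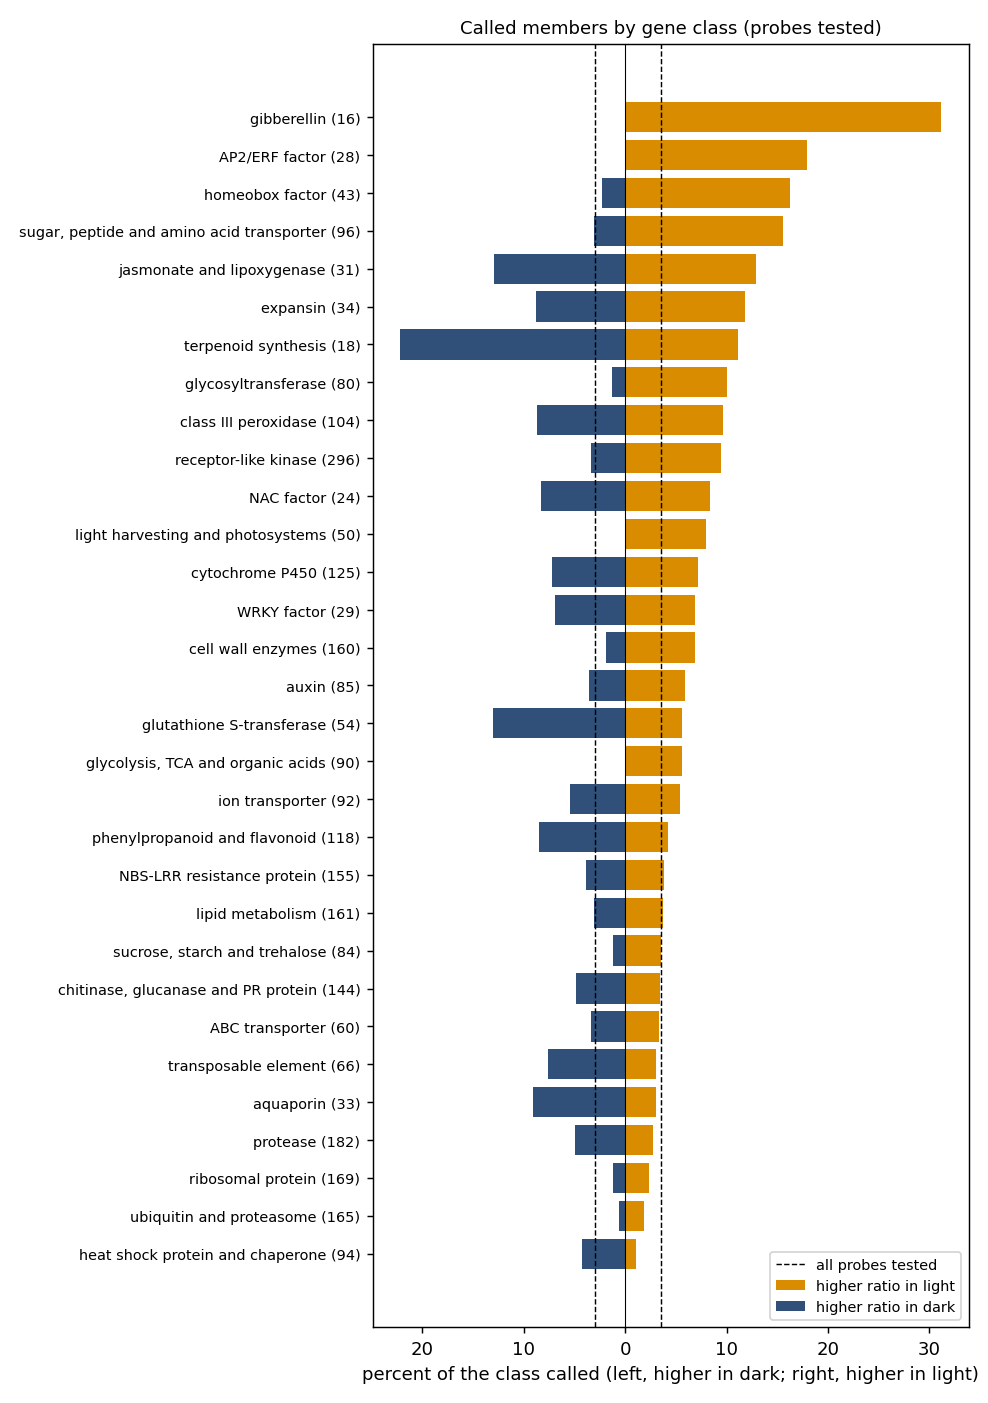
Percent of the probes of each class called with the higher ratio in dark (blue, left) and in light (orange, right), for the 31 classes with at least 15 members and at least 4 called, with the number tested in parentheses; dashed lines mark the 2.98% and 3.54% of all probes. Gibberellin metabolism (31.2%), AP2/ERF factors (17.9%), homeobox factors (16.3%) and sugar, peptide and amino acid transporters (15.6%) lean to light, while glutathione S-transferases (13%) and terpenoid synthesis (22.2%) have their larger bar in dark.

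Of single genes, the largest difference in the direction of light among bright, described probes was that of viviparous-14 (vp14, AK107649), named after the maize enzyme that cleaves a carotenoid in the first committed step of abscisic acid synthesis. Its ratios were 3.4 and 2.93 in light and -0.32 and -0.33 in dark, a difference of -3.49 ± 0.24 (limma, adjusted p = 0.0949). Here the water level hardly differed, with 8.55 and 8.86 in light and 8.88 and 8.84 in dark, while the nitrate level was 11.95 and 11.79 in light and 8.56 and 8.51 in dark. Both dark ratios lay close to each other, below 0 and far from those in light. Among 16 probes for abscisic acid signalling 1 (6.25%) was called, the ABA-responsive protein AK063578 above, against 6.51% of all probes. The class median of the difference was -0.35, while the median ratio was 0.27 in light and 0.50 in dark.

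Among the same bright, described probes, the largest difference in the direction of dark was that of a putative cytochrome P450 (AK106424), with ratios of -2.71 and -3.63 in light and 2.97 and 1.94 in dark, a difference of 5.63 ± 0.51 (limma, adjusted p = 0.108) or 49.4-fold. Under the normexp correction the difference was 3.56. Both channels ran apart: the water level was 10.06 and 10.52 in light and 6.38 and 6.83 in dark, and the nitrate level 7.35 and 6.89 in light and 9.36 and 8.77 in dark. Next among these came a P450 described from ryegrass (AK071864), with -1.06 and -0.88 in light and 1.69 and 1.69 in dark, a difference of 2.66 ± 0.19, or 1.29 under the normexp correction. Another probe of the same description (AK071546) had -0.82 and -1.18 in light and 1.93 and 0.75 in dark, and its difference of 2.34 was 1.44 under that correction and not called without moderation. All 3 thus had negative ratios on both light arrays and positive ratios on both dark arrays.

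Other genes with large differences in the direction of dark differed mainly through one condition. Arginine decarboxylase (AK058573), of polyamine synthesis, had -1.78 and -2.51 in light and 0.45 and 0.20 in dark, a difference of 2.47. The MtN21 nodulin-like probe (AK071286) had -1.81 and -2.13 in light and 0.25 and 0.06 in dark. In both the ratio was clearly negative in light and near 0 in dark. The FAD2 desaturase (AK070559), which makes linoleic from oleic acid, had the reverse, -0.09 and 0.47 in light and 2.54 and 2.62 in dark. Bulb chitinase-1 (AK059767), with -0.98 and -0.06 in light and 1.52 and 1.62 in dark, differed mainly through the ratio in dark, with 1 light array near 0.

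The pathogenesis-related protein PBZ1 (AK071613), induced by probenazole in rice, had -0.79 and -0.34 in light and 2.09 and 1.86 in dark, a difference of 2.54. A second PBZ1 probe (AK099157) had -0.84 and -0.38 in light and 2.25 and 0.65 in dark. The fitted difference of the second, 2.06, lost the call without light replicate 1 (1.83) and without light replicate 2 (2.29). A sequence similar to the Skipper retrotransposon (AK062058) had -0.83 and -1.15 in light and 1.19 and 0.85 in dark.

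In the opposite arrangement, positive in light and negative in dark, stood an amino acid or GABA permease (AK068521), with 1.52 and 0.64 in light and -1.61 and -1.52 in dark, a difference of -2.64. A chitinase (AK058878), which cleaves chitin of fungal walls, had 1.47 and 1.13 in light and -1.35 and -1.31 in dark, a difference of -2.63 ± 0.21. Replicates lay close together here compared with the gap between conditions. The subtilisin-type protease ARA12 (AK101646) had 1.84 and 1.36 in light and -1.07 and -0.85 in dark, and the beta-expansin EXPB11 (AK059638) 1.68 and 2.23 in light and -0.36 and -0.65 in dark. A limonoid glucosyltransferase (AK108674) had 1.87 and 1.48 in light and -0.76 and -0.74 in dark, and an inorganic pyrophosphatase (AK059951) 1.72 and 0.97 in light and -1.57 and -0.40 in dark. The last had the widest spread of these, with a difference of -2.33 ± 0.51 that was not called without moderation. Under the normexp correction the last 2 differences were -1.54 and -1.07.

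With the P450 and PBZ1 probes already given, 2 more genes had large opposite ratios in the direction of dark. An HKT1-type symporter (AK109852), a potassium or sodium transporter, had -1.33 and -1.44 in light and 0.69 and 0.78 in dark, a difference of 2.12, or 1.23 under the normexp correction. A probe similar to the chloroplast ribosomal protein gene rpl16 (AK063463) had -1.0 and -0.85 in light and 0.86 and 1.47 in dark, a difference of 2.09. Adjusted p-values over the 12 bright, described genes with the largest difference each way ran from 0.0949 to 0.258.

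**Figure D5:**
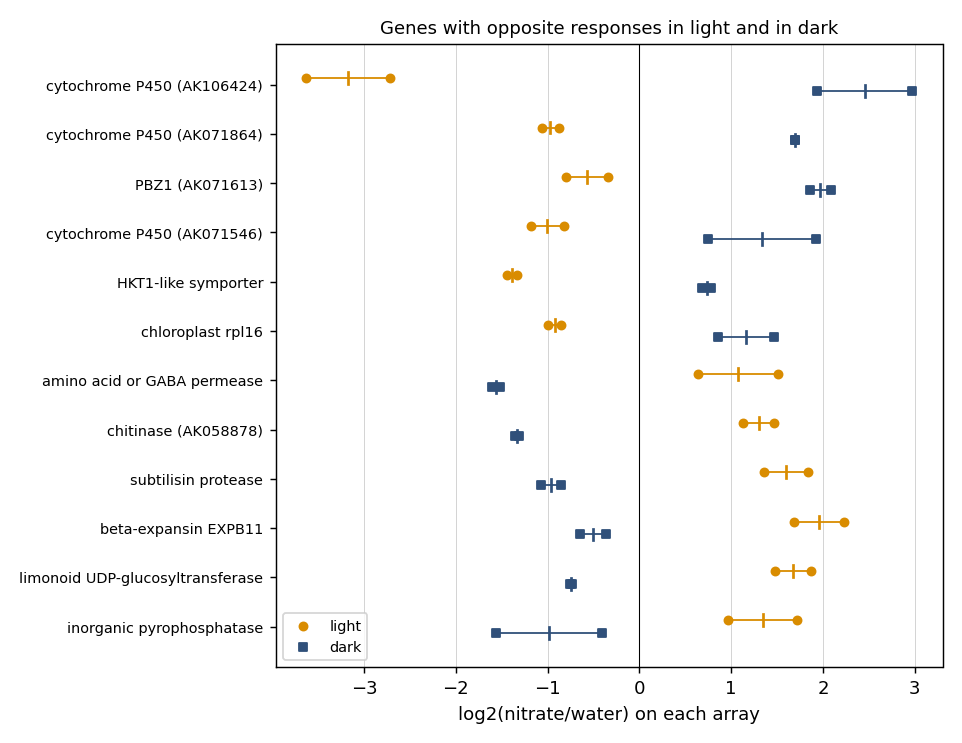
log2(nitrate/water) on each array for the 12 bright, described genes with the largest differences among those of opposite sign (orange circles, light; blue squares, dark; bars mark the mean of 2 arrays and lines join them). The upper 6 genes have both light arrays below 0 and both dark arrays above 0, and the lower 6 the reverse; P450 AK106424 spans from -3.63 to 2.97.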

How the data were processed

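Per array, the authors deposited a scanner file made by Feature Extraction from 2-colour Agilent rice arrays, with processed intensity values per channel (background subtracted, dyes balanced) and a log10 ratio. The deposited value table holds the authors' normalized ratio of each probe, made in GeneSpring GX. The file headers name another version of Feature Extraction than the study's methods. The log2(nitrate/water) of each spot came from the processed signals. Loess normalisation was applied within arrays with a span of 0.3 and 4 iterations, control spots having no weight. Outlier spots were left out, and the mean was taken of a probe's 2 spots. Saturated spots were kept. The 21495 probes were fitted with limma 3.58.1 in R 4.3.3 to the 4 arrays together, 1 coefficient standing for each condition, and dark minus light was tested as their contrast. The thresholds (an absolute log2 difference of 1 and an unadjusted p of 0.05) are those the study states for its genes. Channel levels were taken after loess and Aquantile normalisation. Tables were made with Python 3.11.15 and pandas 2.3.3 and figures with matplotlib 3.10.9. The script was tested on simulated data.

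Classes were search patterns over the descriptions, and a probe can belong to several. The members, lists and patterns were chosen with earlier results of these data known, and some patterns were corrected after values were seen. The genes named were the 12 bright, described genes with the largest difference each way, up to 6 each way among those of opposite sign, up to 2 each way in every class, and all probes of nitrate reductase, nitrite reductase, ferredoxin and ferredoxin-NADP reductase. Other members of classes, and the genes with positive ratios in both conditions, were chosen for the text after their values were seen. The methods call the replicates biological, and with 2 arrays per condition their number limits the precision of every ratio. The 4 arrays were on 1 slide, so no slide or scan could be compared. No sequences are shown. Alternatives were median centring, normexp correction of the background with an offset of 50, no normalization, the Feature Extraction log ratio, the deposited ratios, dim probes left out, outlier spots kept, a block for replicate number, no moderation, array weights, a fold threshold of 1.5 and leaving out each array.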

Additional observations from a re-analysis of the deposited data

Results flagged for a closer look

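In the bright, described genes given here, both arrays in light moved one way and both arrays in dark the other. They are the 6 each way with the largest dark minus light difference in log2(nitrate/water) among 104 bright, described genes of opposite sign with both means at least 0.5 in size. Their arrangement is what picked them out, and no test beyond the contrast by limma was made of it. Negative in light and positive in dark were cytochrome P450 AK106424 (5.63), P450 AK071864 (2.66), PBZ1 AK071613 (2.54), P450 AK071546 (2.34), the HKT1-type symporter AK109852 (2.12) and the rpl16-like probe AK063463 (2.09). Positive in light and negative in dark were the GABA permease AK068521 (-2.64), chitinase AK058878 (-2.63), subtilisin-type protease AK101646 (-2.56), beta-expansin EXPB11 AK059638 (-2.46), limonoid glucosyltransferase AK108674 (-2.42) and inorganic pyrophosphatase AK059951 (-2.33). All 12 kept their call in each of the 4 fits without 1 array.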

How the results depend on the processing

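Of 136 called genes that the rule for named genes picked, none changed its direction under any alternative, and 78 kept their call in each fit without 1 array. Leaving out 1 array could not turn a direction, since the conditions did not overlap for any called probe. Leaving out the moderation does not alter the differences. Among other called probes, AK066737 went from -1.06 to 0.11 under the normexp correction. The call was lost for 57 without moderation, 46 without dark replicate 1, 39 under the normexp correction and 35 without light replicate 1. Over all probes, 1400 were called and 0 passed the adjusted p. The count was 501 under the normexp correction (463 of them among the 1400), 693 without moderation and 3197 at a fold threshold of 1.5, and it ranged from 1241 to 2286 when 1 array was left out, with the highest count without dark replicate 2. The count of called probes with opposite signs was 412, 550 and 2523 under the same 3 settings, and 955 to 1929 with 1 array left out, against 1110. After adjustment, 243 probes passed under the normexp correction, 64 under median centring, 57 with no normalization, 78 with the deposited ratios and 262 with dim probes left out. The cause was not tested. With the replicate number, which here is the dye orientation, as a block, 1452 probes were called, 1336 of them among the 1400, and 0 passed after adjustment. The labels tie these numbers to the dye and name no shared batch, so the main fit did not pair the samples by them. A probe near background has only a bound, and 68.5% of probes had both channels well above background on all arrays.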
